A study of Vitis vinifera with 15 samples.

Results

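The levels of 6 terpene synthase (TPS) genes were compared across the berry skins of 5 table grape cultivars. They are the TPS genes that the study names by identifier among the genes differing between aroma types, out of 31924 genes in the deposited table. RNA was sequenced from skin at the ripening stage, in 3 libraries of each cultivar, 15 in all. 'Summer Black' has dark red berries with a strawberry aroma. 'Shine muscat' has lime-green berries with a muscat aroma, 'Midknight Beauty' dark red berries with a muscat aroma, and 'Centennial Seedless' lime-green berries with a muscat aroma. 'Victoria', the neutral type that the aromatic cultivars were set against, has lime-green berries. The vines grew in 1 vineyard, each replicate was taken from bunches of 3 vines according to the methods, and no treatment is named. The strawberry and neutral types are 1 cultivar each, so a difference between aroma types cannot be told apart there from a difference between cultivars. The labels give the 3 libraries as replicates of the ripening stage, whereas the methods also use the library numbers for 3 growth stages. They were treated as replicates, and the p-values below measure only the spread between these libraries. No list of genes particular to skin, pulp or seed was at hand, so the labelled tissue was not checked against markers.

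Levels are given as FPKM, fragments per kilobase of transcript scaled to the mapped fragments of the library, so that genes of different length can be compared. The values of a library summed to between 718652 and 786207 FPKM. The table holds no read counts, and low values did not fall on steps that would give whole reads back, so the depth behind a single value is unknown. Among the libraries, the paper lists the smallest shares of mapped reads for Shine muscat replicate 1 and Summer Black replicate 3. A value listed at 0 is therefore not a proof of absence, and no fold change is given against a cultivar listed at 0 in all its libraries. In bulk skin, fewer expressing cells and less RNA per cell cannot be told apart.

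Terpene synthases take prenyl diphosphates and turn them into the carbon skeletons of monoterpenes, sesquiterpenes and diterpenes. In plastids the precursors come from the MEP pathway, whose first enzyme, DXS (the synthase that makes deoxyxylulose phosphate), is known as a rate-limiting step. Free monoterpenes such as linalool and geraniol give muscat grapes their floral scent. Much of the grape berry's monoterpene pool is bound to sugar by UDP-glycosyltransferases (UGT) and set free again by beta-glucosidases (BGLU). The grape genome carries a large TPS family, much of it in clusters of similar genes. The product of none of the 6 enzymes is given in the sources used here, and volatile contents were not analysed here.

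Of the 6 identifiers, 4 place their gene on chromosome 13. VIT_13s0067g00370 and VIT_13s0067g00380 have adjoining locus numbers, VIT_13s0067g00050 lies in the same numbered block, and VIT_13s0084g00010 lies in another block. VIT_00s0271g00010 belongs to sequence not placed on a chromosome. Vitis_vinifera_newGene_3216 was assembled by the authors and carries no position. These identifiers belong to the annotation of the PN40024 12X genome, of which no copy was used here, so base positions, exons and protein sequences are not given.

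The study's designed PCR primers show how alike 3 of the genes are. The forward primers of the adjoining pair are printed 5′ to 3′, with a capital for the base that only 1 of them holds:
VIT_13s0067g00370 forward: Agatgttgttgacaggtgggata
VIT_13s0067g00380 forward: gatgttgttgacaggtgggata
Their reverse primers also differ only in length, and the capitals again mark what only 1 primer holds:
VIT_13s0067g00370 reverse: aagccatttcattagtggagttGTA
VIT_13s0067g00380 reverse: aagccatttcattagtggagtt
All 22 shared bases matched in both pairs of primers. These letters do not tell the 2 genes apart in the PCR. Their transcripts were not compared over their whole length. How many sequenced reads match both genes, and how the authors' counting divided them, was not tested, so the separate levels are given with that uncertainty. The forward primer of VIT_13s0067g00370 also resembled the reverse complement of the reverse primer of Vitis_vinifera_newGene_3216, with capitals for the bases that do not match:
VIT_13s0067g00370 forward: agatgTtGttgacagGtgggatA
Vitis_vinifera_newGene_3216 reverse, reverse complement: agatgCtAttgacagAtgggat
Of the 22 bases they share, 19 matched. The substitutions are T6C, G8A and G16A, counted from the 5′ end of the VIT_13s0067g00370 primer, which has no partner for its last base. VIT_13s0067g00380 matched the same primer at 18 of 21 bases. No other pair of the 6 genes had primers alike over at least 18 bases at 80% identity, in 120 comparisons. The forward primers of the remaining genes, which had no such match, complete the set:
VIT_13s0084g00010 forward: aggagaaagtaccttggagcag
VIT_13s0067g00050 forward: aagaagacgcccgtaaacac
VIT_00s0271g00010 forward: atcccagatccaaggttgtcaga
Primers cover short stretches, and genes without a match here may still be similar elsewhere.

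The study chose the 6 genes on comparisons of the aromatic cultivars with Victoria. Levels set against Victoria are therefore a description, without a test. Of the 6 genes, 4 had their highest mean in Summer Black, 1 in Shine muscat and 1 in Victoria, and none in Midknight Beauty or Centennial Seedless.

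VIT_13s0067g00370 was read at 26.6, 11.9 and 5.67 FPKM in Summer Black, against 0.254, 0 and 0.239 FPKM in Victoria. All 9 muscat libraries were listed at 0. Every Summer Black library was thus above every other library. The means were 14.7 ± 10.8 FPKM in Summer Black and 0.164 ± 0.142 FPKM in Victoria (SD, n = 3 each), a ratio of 89.6 and a difference of 3.52 (SE 0.35) on the log2(FPKM + 1) scale. That scale adds a pseudocount of 1 FPKM to each value and so understates the change of low genes, and with a pseudocount of 0.1 the difference was 5.74. The SE comes from a fit of all cultivars, to which the 9 muscat libraries at 0 added no spread. It is therefore small beside the spread of the Summer Black libraries.

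Its neighbour VIT_13s0067g00380 had 27.2, 15.2 and 6.61 FPKM in Summer Black and was listed at 0 in all 3 Victoria libraries. The Shine muscat and Centennial Seedless libraries were also at 0. Midknight Beauty had 0, 0.11 and 0 FPKM. Both genes of the pair were therefore high in Summer Black and at or near 0 elsewhere, with means of 14.7 and 16.3 FPKM there. The level of VIT_13s0067g00370 was 0.98, 0.78 and 0.859 times that of VIT_13s0067g00380 in the 3 Summer Black libraries, per length.

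Vitis_vinifera_newGene_3216 reached 12.5, 6.59 and 2.06 FPKM in Summer Black, against 0.0233, 0 and 0 FPKM in Victoria. Unlike the pair, it was also present in 2 of the muscat cultivars. Shine muscat had 3.76, 0.21 and 2.59 FPKM, Midknight Beauty 0.0205, 0 and 0 FPKM, and Centennial Seedless 1.27, 0.476 and 0.128 FPKM. The libraries of Summer Black and Shine muscat overlapped through Summer Black replicate 3 alone, and a difference between these cultivars was not tested. Those of Shine muscat and Centennial Seedless overlapped as well. Neighbours in the order of these means (7.05, 2.19 and 0.625 FPKM) were therefore not fully separated by library. All Summer Black libraries were above all of Centennial Seedless. The means of Midknight Beauty and Victoria were both under 0.01 FPKM and their libraries overlapped too.

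VIT_13s0084g00010 measured 11.9, 4.85 and 3.06 FPKM in Summer Black, against 3.84, 3.23 and 3.28 FPKM in Victoria. One Summer Black library lay below all Victoria libraries, so these cultivars overlapped although their means were 6.6 ± 4.68 and 3.45 ± 0.339 FPKM (SD, n = 3 each). The gene was listed at 0 in all Shine muscat and all Centennial Seedless libraries. Midknight Beauty had 0, 0.0226 and 0.204 FPKM. The 9 muscat libraries were therefore all below the Summer Black and the Victoria libraries.

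VIT_13s0067g00050 was highest in Victoria, with 3.85, 4.8 and 2.47 FPKM. Summer Black and Centennial Seedless were listed at 0 throughout, Shine muscat had 0, 0 and 0.0667 FPKM, and Midknight Beauty had 0, 0 and 0.201 FPKM. Every Victoria library was above all 12 others. Its highest value, 4.8 FPKM, was the lowest maximum among the 6 genes.

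VIT_00s0271g00010 was highest in Shine muscat, with 26.2, 31.4 and 28.5 FPKM, against 4.35, 6.12 and 4.74 FPKM in Victoria. The other muscat cultivars did not share this level. Midknight Beauty had 0.912, 0.203 and 0.821 FPKM and Centennial Seedless 0.133, 0.344 and 0.0994 FPKM, all below the lowest Victoria library. Summer Black was listed at 0. On the log2(FPKM + 1) scale the difference from Victoria was 2.30 (SE 0.19) in Shine muscat, -1.90 (SE 0.19) in Midknight Beauty and -2.34 (SE 0.19) in Centennial Seedless. With a pseudocount of 0.1 they were 2.49, -2.96 and -4.22. The mean of Shine muscat was 5.66 times that of Victoria, and the 2 other muscat cultivars lay on the opposite side.

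**Figure D1:**
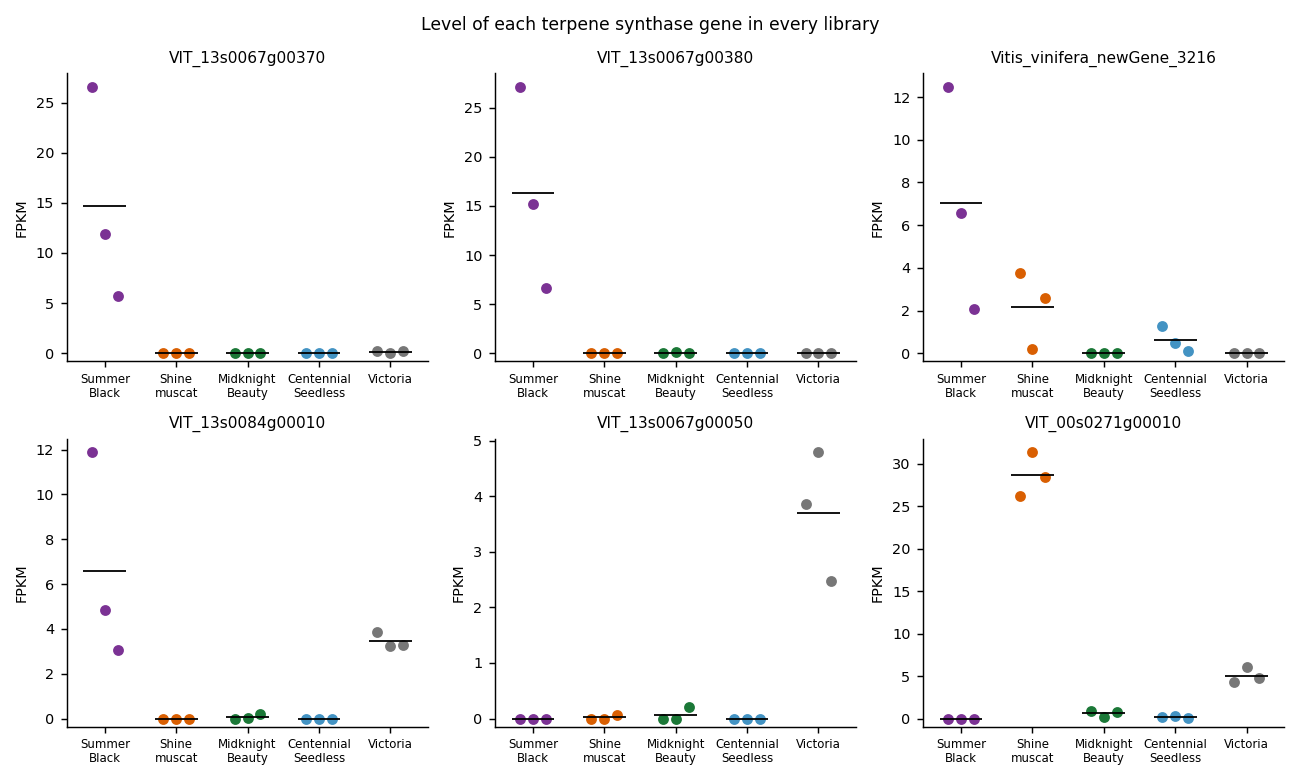
FPKM of each of the 6 terpene synthase genes (1 panel each, linear axes of different range) in the 3 libraries of each cultivar, with replicates 1 to 3 from left to right as points and the mean as a line. In Summer Black 4 genes are highest with widely spread libraries, VIT_13s0067g00050 is highest in Victoria, and VIT_00s0271g00010 lies between 26.2 and 31.4 FPKM in Shine muscat.

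Set against Victoria gene by gene, the libraries did not overlap for 5 genes in Summer Black (3 higher, 2 lower), 4 in Shine muscat (2 higher, 2 lower), 3 in Midknight Beauty (all lower) and 4 in Centennial Seedless (1 higher, 3 lower). Over all 18238 genes tested, the libraries did not overlap for 31.7% of genes in Summer Black (14.4% higher, 17.3% lower), 44% in Shine muscat (28.8% higher, 15.2% lower) and 22.8% in Midknight Beauty (11.3% higher, 11.5% lower). For Centennial Seedless it was 22.7% of genes, 12% being higher and 10.6% lower than Victoria. These 4 comparisons share the Victoria libraries, and the choice of the genes fixed much of the pattern. Among the differences that could be fitted, the smallest for a cultivar whose libraries did not overlap with Victoria was 0.63 (SE 0.52), for Vitis_vinifera_newGene_3216 in Centennial Seedless, and it was 2.40 with a pseudocount of 0.1. The nearest overlapping case was VIT_13s0084g00010 in Summer Black, at 0.60 (SE 0.30). Both SEs come from the fit of all cultivars, so they also reflect the spread of cultivars not compared.

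The summed level of the 6 genes differed between cultivars in size and in makeup. It was 44.7 ± 30.8 FPKM in Summer Black, 30.9 ± 0.866 FPKM in Shine muscat, 0.832 ± 0.453 FPKM in Midknight Beauty, 0.817 ± 0.588 FPKM in Centennial Seedless and 12.4 ± 1.72 FPKM in Victoria (SD, n = 3 each). Midknight Beauty and Centennial Seedless stayed at or under 1.4 FPKM in every library, below the lowest Victoria library at 10.7 FPKM. The Summer Black libraries, at 17.4 to 78.1 FPKM, ranged on both sides of the Shine muscat libraries, at 29.9 to 31.6 FPKM. In Summer Black the adjoining pair made up 68.8%, 70.3% and 70.6% of the sum in the 3 libraries. In Shine muscat VIT_00s0271g00010 made up 87.4%, 99.3% and 91.4%. In Victoria the sum was shared by VIT_00s0271g00010 (35.3%, 43.2% and 44.2%), VIT_13s0067g00050 (31.3%, 33.9% and 23%) and VIT_13s0084g00010 (31.2%, 22.9% and 30.6%).

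**Figure D2:**
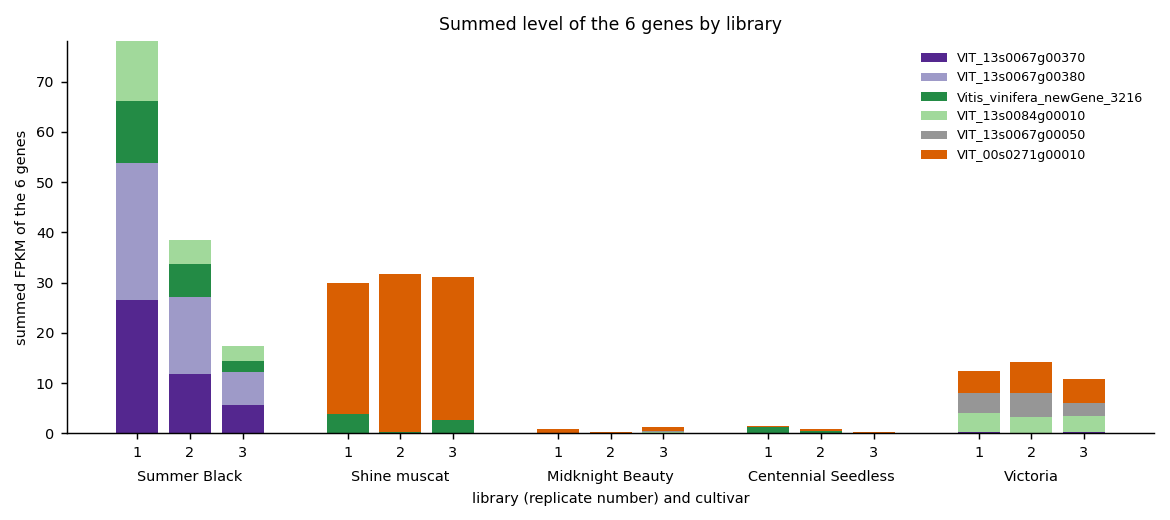
Summed FPKM of the 6 genes in each of the 15 libraries, stacked by gene, with the axis starting at 0. The Summer Black bars span 17.4 to 78.1 FPKM with the adjoining pair near 70% of each, the Shine muscat bars are almost wholly VIT_00s0271g00010, and the Midknight Beauty and Centennial Seedless bars are at or under 1.4 FPKM.

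The study did not choose the genes on differences among the 3 muscat cultivars, but its comparisons with Victoria used the same muscat libraries, so that tests among them are not fully independent of the choice. These differences were tested with limma on log2(FPKM + 1), and p-values were adjusted after Benjamini and Hochberg over all 18238 genes. A gene was called at a log2 difference of at least 2 and an adjusted p of at most 0.01. All 6 genes passed the filter on low values, each through the cultivars where it was high. In Shine muscat against Midknight Beauty, 1 of the 6 genes was called, where 2.1% of all genes were. In Shine muscat against Centennial Seedless it was again 1 of 6, where 2.24% of all genes were. In Midknight Beauty against Centennial Seedless limma called 0 of 6 (1 of 6 at an unadjusted p under 0.05), where 1.29% of all genes were called. Nothing is read from that count, since 4 of the 6 genes were at 0 in all Centennial Seedless libraries and the highest value of any of them in either cultivar was 1.27 FPKM.

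The gene called was VIT_00s0271g00010 both times. Its mean was 28.7 ± 2.62 FPKM in Shine muscat and 0.645 ± 0.386 FPKM in Midknight Beauty (SD, n = 3 each), a ratio of 44.4. The log2 difference was 4.20 (SE 0.19, limma adjusted p = 1.1e-08), where the median of all genes tested was 0.12. Against the 0.192 ± 0.132 FPKM of Centennial Seedless the ratio was 149 and the log2 difference 4.64 (SE 0.19, limma adjusted p = 4.95e-09), where the median was 0.10. All 3 Shine muscat libraries were above all 6 libraries of the 2 other cultivars, and the libraries of Shine muscat and Centennial Seedless did not overlap, in either direction, for 44.1% of all genes. Over 11 alternatives each, the difference stayed between 3.99 and 5.45 (adjusted p 1.36e-08 to 0.000246) against Midknight Beauty and between 4.53 and 6.71 (5.79e-09 to 4.57e-05) against Centennial Seedless. Midknight Beauty and Centennial Seedless differed by 0.44 (SE 0.19, limma adjusted p = 0.177) with overlapping libraries, which is not past the threshold.

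Vitis_vinifera_newGene_3216 was higher in each Shine muscat library than in any Midknight Beauty library, a separation that 46.1% of all genes tested showed in either direction. The log2 difference was 1.45 (SE 0.52, limma adjusted p = 0.0633) and did not pass. With a pseudocount of 0.1 in place of 1 it was 3.79 and passed, with an adjusted p of 0.00968. Shine muscat against Centennial Seedless gave 0.82 (SE 0.52, limma adjusted p = 0.307), with overlapping libraries. Midknight Beauty against Centennial Seedless gave -0.63 (SE 0.52, limma adjusted p = 0.534), with each Midknight Beauty library lower, and the libraries of these cultivars did not overlap for 26.5% of all genes. VIT_13s0067g00050 was at most at 0.201 FPKM in the muscat libraries, too low for a comparison among them. The adjoining pair and VIT_13s0084g00010 were listed at 0 in at least 1 cultivar of each of these comparisons and at most at 0.204 FPKM in the other, so no fold change is given.

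The other terpene genes that the study names by identifier were tested among the same 3 cultivars. They were chosen by the study on these samples and are no independent evidence. VIT_05s0020g02130 encodes DXS, which supplies the precursors of plastid terpenes. It had 88.7, 71.4 and 86.2 FPKM in Shine muscat, 29.9, 33.6 and 32.3 FPKM in Midknight Beauty and 36, 36.9 and 36 FPKM in Centennial Seedless, so that Shine muscat stood above both. The ratio of means was 2.57 against Midknight Beauty (log2 difference 1.33, SE 0.16, limma adjusted p = 0.000101) and 2.26 against Centennial Seedless (1.15, SE 0.16, limma adjusted p = 0.000337). Both were under the fold needed for a call. Midknight Beauty and Centennial Seedless differed by -0.18 (SE 0.16, limma adjusted p = 0.583). Its means were 27.3 ± 6.27 FPKM in Summer Black and 18.6 ± 3.97 FPKM in Victoria (SD, n = 3 each), with overlapping libraries.

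VIT_03s0063g02490 encodes a BGLU, an enzyme of the kind that frees bound terpenes. It followed another pattern than VIT_00s0271g00010. Shine muscat had 64.4, 55.8 and 55 FPKM, Midknight Beauty 12.1, 8.05 and 8.58 FPKM and Centennial Seedless 83.6, 54.4 and 56.7 FPKM, so that Midknight Beauty was the low one of the 3. The log2 difference was 2.50 (SE 0.30, limma adjusted p = 8.14e-05) in Shine muscat against Midknight Beauty and -2.63 (SE 0.30, limma adjusted p = 9.94e-05) in Midknight Beauty against Centennial Seedless, both called. Shine muscat against Centennial Seedless gave -0.13 (SE 0.30, limma adjusted p = 0.817). Summer Black averaged 24.4 FPKM and Victoria 8.6 FPKM.

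The 2 UGT genes were not called in any of the 3 comparisons. VIT_17s0000g07070 averaged 9.43 FPKM in Shine muscat, 13.2 FPKM in Midknight Beauty and 14.7 FPKM in Centennial Seedless, with limma adjusted p between 0.0897 and 0.782. It averaged 1.43 FPKM in Summer Black and 0.16 FPKM in Victoria. VIT_17s0000g07060 averaged at most 0.585 FPKM in any aromatic cultivar and 2.84 FPKM in Victoria, the opposite side from its neighbour. In all, 1 of the 4 genes was called in Shine muscat against Midknight Beauty (beside 2.1% of all genes) and 0 in Shine muscat against Centennial Seedless (beside 2.24%). In Midknight Beauty against Centennial Seedless 1 was called (beside 1.29%). At an unadjusted limma p under 0.05, 2 of 4 passed in each of the 3 comparisons. The share of all genes at that threshold was not computed, so nothing is read from it.

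**Figure D3:**
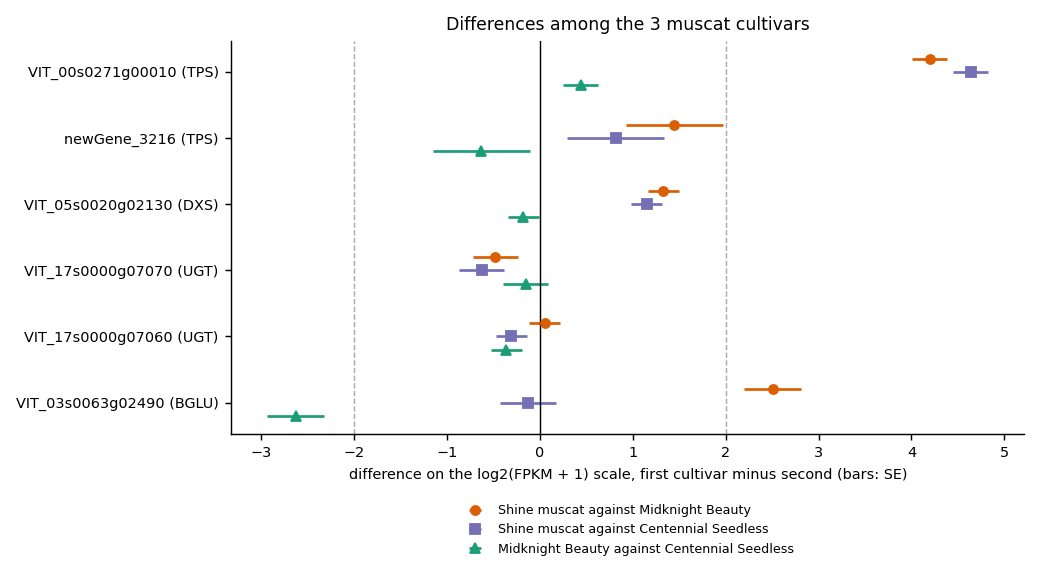
Differences among the muscat cultivars on the log2(FPKM + 1) scale, first cultivar minus second, with SE bars from limma and dashed lines at the fold needed for a call. Of the TPS genes that could be fitted in all 3 comparisons, VIT_00s0271g00010 lies at 4.20 and 4.64 for Shine muscat, and Vitis_vinifera_newGene_3216 within the dashed lines; DXS lies at 1.33 and 1.15, and BGLU at 2.50 for Shine muscat against Midknight Beauty and -2.63 for Midknight Beauty against Centennial Seedless.

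Within Summer Black the 4 genes that were highest there were all highest in replicate 1 and lowest in replicate 3. The value of replicate 1 was 4.69 times that of replicate 3 for VIT_13s0067g00370, 4.11 times for VIT_13s0067g00380, 6.06 times for Vitis_vinifera_newGene_3216 and 3.89 times for VIT_13s0084g00010. Among the 14502 genes at 1 FPKM or more in all Summer Black libraries, the median of this ratio was 0.984. The share of those genes with a ratio at least as high was 0.586%, 0.827%, 0.338% and 0.986% in the same order of genes. Taking the highest over the lowest library whichever it was, the median was 1.47, and 3.22%, 4.32%, 1.91% and 4.81% of genes reached as far. The order of the libraries was shared by 2111 genes (14.6%). Without replicate 1 the Summer Black means were 8.77, 10.9, 4.32 and 3.95 FPKM in that order of genes, and the mean sum of the 6 genes was 28 FPKM, below each Shine muscat library. Singly, replicates 1 and 2 summed to more than any Shine muscat library (78.1 and 38.5 FPKM) and replicate 3 to less (17.4 FPKM). Means without replicate 2 or 3 were not computed. The shares of genes describe the 3 libraries and were computed after the values had been seen. The methods also assign the library numbers to growth stages, while the paper's summary of sequencing gives them as biological replicates at ripening. Replicate 3, the lowest for each gene, also had the smallest share of mapped reads in Summer Black. The parts of stage and of mapping in this spread were not tested. DXS varied less, with a highest over lowest ratio of 1.51 in the same libraries.

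**Figure D4:**
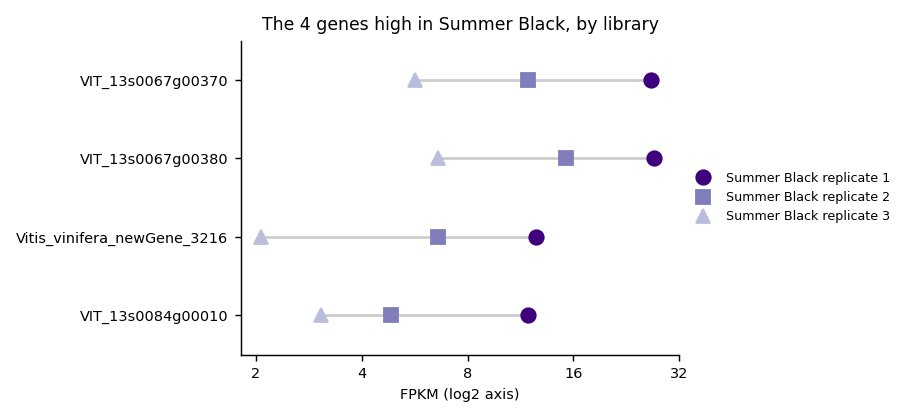
FPKM (log2 axis) of the 4 genes in the 3 Summer Black libraries, with replicate 1 as circles, replicate 2 as squares and replicate 3 as triangles. Replicate 1 is highest and replicate 3 lowest for each gene, 3.89 to 6.06 times apart.

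The deviations of the same 4 genes from their cultivar means moved together in the Summer Black libraries, which restates the order of those libraries given above. Pearson's r of these deviations on log2(FPKM + 1) was 0.971 between the genes of the adjoining pair, 0.962 between VIT_13s0067g00370 and VIT_13s0084g00010, and 0.924 between VIT_13s0067g00380 and VIT_13s0084g00010. With Vitis_vinifera_newGene_3216 it was 0.661, 0.677 and 0.628 for the same 3 genes. The median over the 6 pairs was 0.80, and it was 0.00141 without the Summer Black libraries, so the co-variation rests on Summer Black. Most values of these genes elsewhere were at or near 0, so little co-variation could show there. VIT_13s0067g00050 and VIT_00s0271g00010, both at 0 in Summer Black, deviated with an r of 0.367 between them and of -0.169 to 0.0746 with the other genes. The points share cultivars, libraries and depth, and the pair may share reads, so these coefficients are given as a description.

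The genes whose pattern was most like each of the 6 were taken as the 3 with the highest Pearson's r on log2(FPKM + 1) over the 15 libraries. For VIT_13s0067g00370 and VIT_13s0067g00380 these were each other (r = 0.996), VIT_02s0033g00420 (0.99 and 0.994) and VIT_00s0230g00060 (0.984 and 0.991). VIT_02s0033g00420 had 6.63, 3.61 and 2.75 FPKM in Summer Black and at most 0.195 FPKM in any other library. For VIT_00s0271g00010 they were Vitis_vinifera_newGene_1141 and VIT_00s0266g00040 (0.979 each) and VIT_00s0266g00070 (0.962), from unplaced sequence where a locus is given. VIT_00s0266g00070 had 3.91, 4.46 and 5.42 FPKM in Shine muscat and at most 1.26 FPKM elsewhere. For VIT_13s0067g00050 they were Vitis_vinifera_newGene_3002 (0.995), Vitis_vinifera_newGene_3114 (0.988) and VIT_15s0107g00360 (0.987). Vitis_vinifera_newGene_3002, for example, had 5.91, 7.03 and 4.33 FPKM in Victoria and was at 0 in all 12 others. For VIT_13s0084g00010 they were VIT_00s0160g00210 (0.965), Vitis_vinifera_newGene_329 (0.963) and Vitis_vinifera_newGene_330 (0.958), and for Vitis_vinifera_newGene_3216 VIT_10s0003g04970 (0.901), VIT_14s0060g00360 and VIT_19s0015g02680 (0.887 each). With many libraries at 0, such coefficients follow the 1 or 2 cultivars where a gene is read, and by Spearman's rho at most 1 of the 3 genes stayed among the nearest 3.

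The other genes in the numbered blocks of the annotated TPS genes were also counted. They are named neighbouring genes below, however far along the block they lie. The table holds 437 other genes of the same 3 numbered blocks, of which 279 passed the filter on low values. In Shine muscat against Midknight Beauty 0.717% of these were called (beside 2.1% of all genes), in Shine muscat against Centennial Seedless 1.08% (beside 2.24%) and in Midknight Beauty against Centennial Seedless 0.717% (beside 1.29%). In Summer Black against Victoria 3 rose and 5 fell (2.87%, beside 2.45% of all genes). In Shine muscat against Victoria 2 rose and 1 fell (1.08%, beside 2.43%), in Midknight Beauty 1 rose (0.358%, beside 1.06%), and in Centennial Seedless 3 rose (1.08%, beside 1.22%). Among the genes counted, VIT_13s0067g00620, higher in Centennial Seedless than in Victoria, is itself a candidate that the study names from comparisons with Victoria. The counts are small. With a single library left out, 4 of the 7 moved by more than 1.5 times, to between 1 and 4 genes (without Shine muscat replicate 1 or 3, Midknight Beauty replicate 2, Centennial Seedless replicate 2, or Victoria replicate 2 or 3), and the 3 others moved by less.

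Close to the adjoining pair, VIT_13s0067g00360 averaged under 1 FPKM in all 5 cultivars, and VIT_13s0067g00390 was present in all of them. VIT_13s0067g00260 varied widely in Summer Black, with 551.3, 14.9 and 147.5 FPKM there against 114.6, 184.4 and 195.7 FPKM in Victoria, and was called in none of the comparisons. Near VIT_13s0067g00050, VIT_13s0067g00090 had 2.6, 2.58 and 1.76 FPKM in Victoria and was above 0 in only 2 of the 12 other libraries, at 0.672 FPKM in 1 of Summer Black and 0.329 FPKM in 1 of Midknight Beauty. It was singled out after its values were seen. Of the 43 other genes with locus numbers up to 500 in this block, 24 were tested and 8 were at 0 in all 15 libraries.

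Farther along the same block, VIT_13s0067g00890 averaged 26.2 FPKM in Summer Black (17.3 FPKM without replicate 3) and 11.7 FPKM in Centennial Seedless, and at most 0.615 FPKM in the other cultivars. It was called in 4 comparisons, among them Summer Black against Victoria (3.89, SE 0.37, limma adjusted p = 1.24e-05) and Midknight Beauty against Centennial Seedless (-3.05, SE 0.37, limma adjusted p = 0.000143). VIT_13s0067g02050 averaged 47 FPKM in Summer Black (11 FPKM without replicate 3) and 0.123 FPKM in Victoria (4.30, SE 0.80, limma adjusted p = 0.00251), and was no longer called without Victoria replicate 2 (adjusted p = 0.011). VIT_13s0067g02040, with the locus number just before it, was instead higher in Midknight Beauty (15.8 FPKM) and Centennial Seedless (16.4 FPKM) than in Victoria (0.551 FPKM), by 3.44 (limma adjusted p = 3.14e-08) and 3.49 (limma adjusted p = 3.26e-08).

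In the block of VIT_00s0271g00010, 6 of 10 other genes were tested. VIT_00s0271g00080 had its highest mean in Shine muscat too, at 12.1 FPKM against 8.75 FPKM in Victoria, and was not called. VIT_00s0271g00110 was also highest there, at 118.8 FPKM, and was not called in any comparison of Shine muscat. VIT_00s0271g00090 averaged 0.336 FPKM in Summer Black and 6.6 FPKM in Victoria (-2.47, SE 0.23, limma adjusted p = 9.46e-06). VIT_00s0271g00110 averaged 13.4 FPKM in Summer Black and 71.5 FPKM in Victoria (-2.41, SE 0.39, limma adjusted p = 0.000922). Summer Black was thus the low cultivar for both of these genes, as it was for VIT_00s0271g00010, which was listed at 0 there. The other tested genes, VIT_00s0271g00040, VIT_00s0271g00070, VIT_00s0271g00080 and VIT_00s0271g00100, had their lowest mean in another cultivar.

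**Figure D5:**
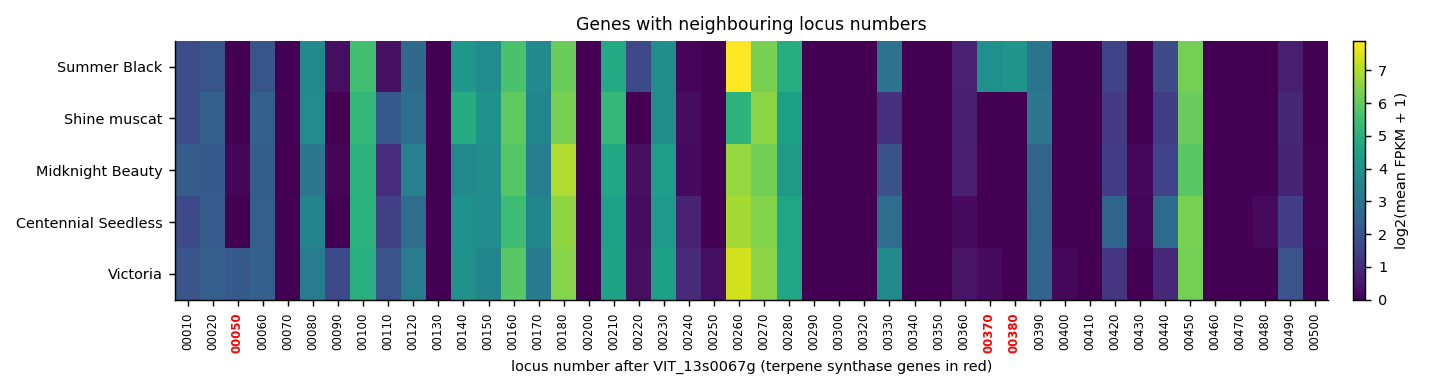
Mean level, as log2(mean FPKM + 1), of the genes with locus numbers up to 500 in the VIT_13s0067g block (columns) in each cultivar (rows), with the 3 terpene synthase genes of the block in red. The adjoining pair is high in Summer Black alone of the 5 rows, between VIT_13s0067g00360, under 1 FPKM in every row, and VIT_13s0067g00390, present in every row.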

How the data were processed

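The authors deposited 1 table of FPKM for 31924 genes, 1997 of them newly assembled, in 15 libraries. According to the methods, clean reads were mapped to the PN40024 12X genome with Bowtie2 and levels estimated with RSEM, while the submitters' processing notes list HISAT2 and StringTie. The labels and the methods also name different library kits. Multi-mapped reads of similar genes may be split by such tools in ways that move reads between them.

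FPKM were used as deposited. Genes with at least 1 FPKM in at least 3 of the 15 libraries (18238) were fitted as log2(FPKM + 1) with limma 3.58.1 (lmFit, eBayes with trend) in R 4.3.3, as 5 cultivar means, with Benjamini-Hochberg adjustment over all of them. Each SE thus pooled the spread of a gene over all cultivars, including those listed at 0. A call needed a log2 difference of at least 2 and an adjusted p of at most 0.01. The count test of the study could not be used, since whole reads were not recoverable: at the median of 105 library pairs, 2.8% of ratios between low values fell on the most frequent step. Data were simulated for Shine muscat against Midknight Beauty with 18238 genes. Of 100 genes changed by 3 on the log2 scale, 94 were called, and 0 of 18038 unchanged genes were. Of 100 genes changed by 1, 46 passed the adjusted p. The changed genes were drawn only from genes whose mean on the log2(FPKM + 1) scale exceeded that of 5 FPKM. The terpene synthase genes studied here averaged below it, so the rates were not measured at their level. These rates were not split by level. They give no separate rate for genes listed at 0 in several libraries, as each terpene synthase gene studied here was. Correlations and figures used numpy 2.4.6, pandas 2.3.3 and matplotlib 3.10.9.

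Named were the 6 genes, 4 further terpene genes, genes of the same locus blocks called in a comparison or at 10 FPKM or more (the text gives some of them), and the 3 genes most like each of the 6. The members and lists were chosen with earlier results of these data known. The RefSeq gene table at hand held 0 of these identifiers.

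Same-numbered libraries deviated together in Midknight Beauty against Centennial Seedless (r = 0.591, 0.598 and 0.222 over the genes tested). In the other comparisons not every pair was over 0.1, but some were high. Midknight Beauty against Victoria gave 0.0143, 0.527 and 0.562, and Centennial Seedless against Victoria -0.268, 0.533 and -0.163. Correlations between libraries of different number were not computed, so these values cannot show a pairing by number. Alternatives were a pseudocount of 0.1, no filter on low values, median-of-ratios scaling, a fit of the 2 cultivars compared only, the replicate number as a block, other thresholds and each library left out in turn.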

Additional observations from a re-analysis of the deposited data

How the results depend on the processing

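The calls of the 6 genes (1, 1 and 0 in Shine muscat against Midknight Beauty, Shine muscat against Centennial Seedless and Midknight Beauty against Centennial Seedless) kept their number under every alternative run but 1: with a pseudocount of 0.1, Vitis_vinifera_newGene_3216 was also called in the first, which made 2. The counts over all genes (383, 409 and 236) were 878, 902 and 536 with that pseudocount and 1122, 1037 and 572 at a log2 difference of at least 1 with an adjusted p under 0.005, while the third was 155 when the 2 cultivars were fitted alone. These thresholds also called 2 and 1 of the 4 other terpene genes in the 2 comparisons of Shine muscat, by adding DXS.

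The counts of neighbouring genes (2, 3 and 2 in the same order, then 8, 3, 1 and 3 for Summer Black, Shine muscat, Midknight Beauty and Centennial Seedless against Victoria) were 8, 10, 4, 25, 10, 7 and 7 with a pseudocount of 0.1 and 19, 18, 7, 29, 10, 10 and 11 at the other thresholds. The count for Summer Black against Victoria was 5 when those 2 cultivars were fitted alone, and that for Shine muscat against Victoria was 1 with no filter on low values and 1 with median-of-ratios scaling. With 1 library left out, neighbouring genes numbered 1 to 3 in Shine muscat against Midknight Beauty (1 without Shine muscat replicate 1 or 3), 1 to 3 in Midknight Beauty against Centennial Seedless (1 without Centennial Seedless replicate 2), 1 to 2 in Shine muscat against Victoria (1 without Shine muscat replicate 1 or 3, or Victoria replicate 2 or 3) and 1 to 4 in Midknight Beauty against Victoria (2 without Victoria replicate 3, 4 without Midknight Beauty replicate 2). The causes were not tested.

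The median r of the deviations of the 4 genes high in Summer Black (0.80) was 0.954 on the linear FPKM scale, 0.912 without Shine muscat and 0.00141 without Summer Black. Median-of-ratios scaling shifted the median difference of all genes by -0.12 in Shine muscat against Midknight Beauty and by -0.11 in Shine muscat against Victoria, and changed no call of the 6 genes. With the replicate number as a block, the counts over all genes were 382, 423 and 239, and no call of the 6 genes or the 4 other terpene genes changed in number. The depth behind single values is unknown, so how far low values such as those of VIT_13s0067g00050 could be resolved is unknown as well.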
